A study of Homo sapiens with 6 samples.

Results

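Large-subunit ribosome biogenesis factors are the proteins that assemble, process and export the precursor of the 60S ribosomal subunit. The 55 members described here were chosen by gene symbol, from what their products are known to do. No measured value enters the rule, but the list was drawn up with earlier results of these data known, so that the counts below are not independent of them. Each symbol had 1 row in the deposited table, so they are 55 of its 61806 genes, and all 55 passed the filter on low counts and were tested. Messenger RNA was measured in 6 libraries of 293T cells, an established line derived from human embryonic kidney. In 3 libraries the cells had been given a plasmid labelled GFP, which encodes green fluorescent protein, and in 3 a plasmid labelled GFP-812, in both cases with a lipid reagent. What the number in the name of the latter plasmid means is not in the labels, while the title of the series concerns truncated NEK1, nuclear condensates and ribosomal RNA production. Both groups therefore carry GFP and the transfection, and neither an untransfected group nor a full-length NEK1 group was analysed here. Libraries are numbered by the replicate number in their titles. No label ties the 3 libraries of a group to separate cultures, so the p-values below measure the spread between libraries, which may be technical.

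Ribosomal RNA is transcribed in the nucleolus as one long precursor, and the part that becomes the large subunit is folded there around early scaffold proteins. Helicases, methyltransferases, nucleases and GTPases then remodel the particle in steps, AAA ATPases pull off factors that are no longer needed, and the particle is exported and finished in the cytoplasm. The factors are recycled and do not stay in the ribosome. The libraries were made from poly(A) RNA, so that what follows is the messenger RNA of the factors, and neither ribosomal RNA nor subunit assembly was measured. In bulk RNA, fewer cells that make a transcript and less of it per cell cannot be told apart.

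NEK1, the check of the plasmid, stood at 563, 518 and 494 FPKM, the count scaled by exonic length and library total, in the GFP-812 libraries and at 3.82, 3.99 and 3.91 FPKM in the GFP libraries, a fitted 135.5-fold difference (edgeR adjusted p = 4.503e-70). Libraries held 14255148 to 17613814 counts. Both KRT8 and KRT18, keratins of simple epithelia, were present at means of 9.99 and 15.0 FPKM. The adhesion molecules CDH1 and EPCAM, which define most epithelial cells, were low for a line labelled epithelial, at 0.66 and 0.978 FPKM. Of 6 embryonic kidney markers 3 reached a mean of 1 FPKM. Of 5 blood markers, PTPRC and HBB were listed at 0, and the sums over that list were 1.52 to 1.64 FPKM in the GFP-812 libraries and 0.74 to 1.59 FPKM in the GFP libraries. No marker of the epithelial, embryonic kidney, blood, fibroblast and endothelial lists passed the test between the groups.

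In GFP-812 cells 4 of the 55 factors were lower, 0 were higher and 51 did not pass the test. The 4 were NVL, an AAA ATPase that strips the factor WDR74 from the nucleolar particle, NOL8 and CEBPZ, proteins of the early scaffold, and TEX10, a subunit of the Rix1/PELP1 complex. Their fitted falls were small, from 10.8% to 15.9%. The 4 are 7.27% of the members, and over all 16834 genes tested 2.67% were lower and 1.18% were higher (edgeR's quasi-likelihood test, Benjamini-Hochberg adjusted p under 0.05). At an unadjusted p under 0.05 there were 8 members, all lower, which is 14.5% of the members against 16.1% of all genes tested in either direction. The number of members at that level was 10, 5 and 8 without GFP-812 libraries 1, 2 and 3. It was 9, 12 and 11 without GFP libraries 1, 2 and 3. Of all genes, 2122 of 17265 tested were at that level without GFP-812 library 2, against 2717 of 16834 with all 6 libraries. The number of lower members was 4 without GFP-812 library 1 and 2 without GFP-812 library 2, GFP-812 library 3 or GFP library 1. It was 3 without GFP library 2 and 5 without GFP library 3. In limma on log2(FPKM + 1) 0 of the 55 were called, with 7 at an unadjusted p under 0.05. That fit called few genes at all, 1 lower and 3 higher of 12984, with 1959 at an unadjusted p under 0.05, so 0 members called says little about the list. The share of all genes called lower moved as well in the fits that left out 1 library, from 0.851% without GFP-812 library 2 to 4.69% without GFP library 3.

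To show what lies at the starts of these 4 genes, the 30 bases before each RefSeq transcription start are given in GRCh38.p14, from 5′ to 3′ on the strand of the gene, with the E-box CACGTG in capitals. This hexamer is the core site of MYC and related factors, which are known to drive many genes of ribosome production. The stretches are chr1:224330173-224330202 for NVL, chr2:37231597-37231626 for CEBPZ, chr9:92325351-92325380 for NOL8 and chr9:100352943-100352972 for TEX10, all on the minus strand.
NVL: cggcgggcaacccctacgaggcccccggtt
CEBPZ: attacgccactggcagagcggaaataggct
NOL8: agagaggatgctccgttgggaCACGTGacc
TEX10: CACGTGagcacagcagggagggggaggggc

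NOL8 held the E-box at position -9 and TEX10 at position -30 from the RefSeq start. NVL and CEBPZ had none in their windows of 250 bases before to 50 bases after the start. TEX10 has a second annotated start, whose window held none either. Of the 250 bases before the RefSeq start, 250 lie in GENCODE 29 exons for NOL8, 244 for CEBPZ and 215 for NVL. By the deposited coordinates NOL8 reaches to 92325636, so its E-box lies inside the gene and may not be in its promoter. The longer stretch before the first TEX10 start, chr9:100352943-100353192 on the minus strand, lies outside every GENCODE 29 exon and is shown whole because it also holds an ETS core (CGGAAG, read on the other strand at position -115).
TEX10: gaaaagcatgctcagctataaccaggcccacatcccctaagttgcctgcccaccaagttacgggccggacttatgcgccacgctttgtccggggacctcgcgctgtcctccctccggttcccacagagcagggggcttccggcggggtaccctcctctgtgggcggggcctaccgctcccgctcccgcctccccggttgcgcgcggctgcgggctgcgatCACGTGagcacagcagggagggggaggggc

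Over the list, 47 of the 55 members had a RefSeq promoter window. An E-box lay in 14 of the 47 (29.8%), against 12.3% of the 11659 tested genes with a window and 8.77% of all 27305 genes with one. The ETS core CGGAAG lay in 29 members (61.7% against 36.7% of tested genes), and the CCAAT box in 13 members (27.7% against 43.2%). The YY1 core AAGATGG lay in 7 members (14.9% against 9.1%) and the motif CTCGCGAG in 2 members (4.26% against 2.3%). Each motif was searched on both strands, and none of the 5 contains another. These shares describe the letters of the windows and carry no test. The median fitted log2 fold change was -0.053 in the 14 members with the E-box and -0.026 in the 33 without. Of the 4 lower members, 2 had the E-box. For the CCAAT box the medians were -0.043 with it and -0.03 without, and 2 of the 4 lower members had it too. For the ETS core they were -0.038 and -0.023, with 1 lower member. They were -0.040 and -0.034 for CTCGCGAG and -0.020 and -0.040 for the YY1 core, with 0 lower members each. A part of any of these motifs in the changes was not tested.

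Among the AAA ATPases, which use ATP to pull factors off the pre-60S particle, 1 of 2 fell. NVL (ENSG00000143748, hg38 chromosome 1, 224227334 to 224330189, minus strand) acts in the nucleolus. It was at 21.5, 21.6 and 21.4 FPKM in the GFP-812 libraries and at 27.3, 25.8 and 24.1 FPKM in the GFP libraries. The GFP-812 libraries lay close together (SD 0.0721 FPKM, n = 3), all below the lowest GFP library, while the GFP libraries spread more widely (SD 1.63 FPKM, n = 3). NVL fell by 15.9% (log2 fold change -0.25, 95% interval -0.35 to -0.15, edgeR adjusted p = 0.001148). This call held in each fit that left out 1 library, with its largest adjusted p, 0.04297, without GFP library 1, and it did not hold in limma on log2(FPKM + 1) (adjusted p = 0.2119). MDN1, the giant ATPase that removes the PeBoW and Rix1 groups of factors, was at 8.36, 8.26 and 8.55 FPKM against 9.12, 9.20 and 8.45 FPKM. Its groups overlapped, because GFP library 3 lay at the level of the GFP-812 libraries, and it did not pass (log2 fold change -0.076, adjusted p = 0.3486). Without GFP library 3 it passed (log2 fold change -0.11, adjusted p = 0.04447).

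**Figure D1:**
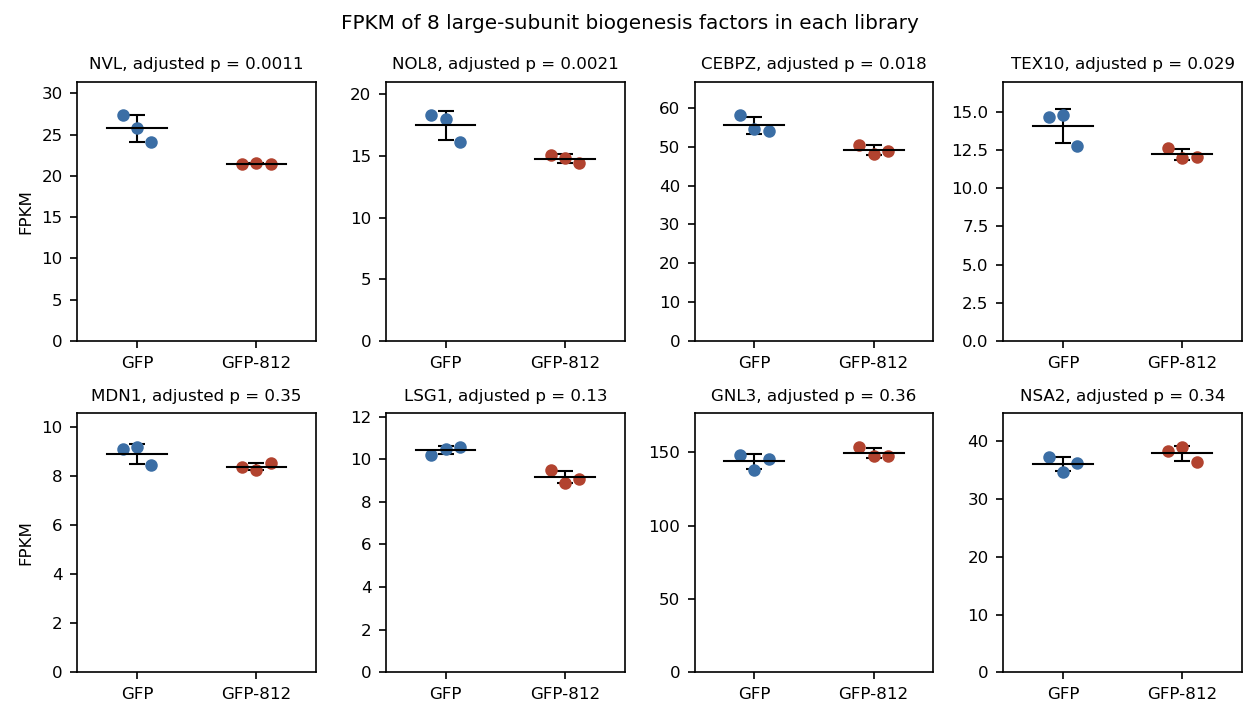
FPKM of the 4 lower factors (top row) and of 4 factors that did not pass (bottom row) in each library, blue for GFP and red for GFP-812, with lines for the mean and bars for the SD of 3 libraries. The NVL points of the GFP-812 libraries sit together at 21.4 to 21.6 FPKM, below GFP points of 24.1 to 27.3 FPKM.

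Of the 9 members grouped here as NOC and early scaffold proteins, 2 fell, 0 rose and 7 did not pass. The group is a working one, and its members need not all act at the same step. In it 8 of the 9 fitted log2 fold changes lay below 0, with a median of -0.065. NOL8 (ENSG00000198000, chromosome 9, 92297358 to 92325636, minus strand), an RNA-binding nucleolar protein, was at 15.1, 14.8 and 14.4 FPKM against 18.3, 18.0 and 16.1 FPKM in the GFP libraries. Here too every GFP-812 library was below every GFP library, and the nearest was GFP library 3. NOL8 fell by 14.6% (log2 fold change -0.23, SE 0.0489, adjusted p = 0.002091), and it kept its call without each single library, at most at an adjusted p of 0.04915 without GFP library 1, but not in limma (0.217). CEBPZ (ENSG00000115816, chromosome 2, 37201612 to 37231596, minus strand), the human counterpart of the yeast early factor Noc1, was at 50.5, 48.2 and 48.9 FPKM against 58.1, 54.6 and 54.1 FPKM. It is among the 3 most abundant members. CEBPZ fell by 10.8% (log2 fold change -0.16, SE 0.0438, adjusted p = 0.0181), with no call without GFP-812 library 2 (0.1845), GFP-812 library 3 (0.1292) or GFP library 1 (0.217). Of its exonic bases 23.2% also lie in exons of other genes, CEBPZOS among them, on the opposite strand, and whether counting used strand is not given in the sources used here. CEBPZOS, named after its values were seen, was at 28.3 ± 1.35 against 26.1 ± 0.385 FPKM (SD, n = 3 each) and did not pass (log2 fold change 0.13, adjusted p = 0.1082).

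SDAD1, the counterpart of yeast Sda1, was at 31.1, 28.6 and 31.5 FPKM against 34.4, 33.0 and 32.1 FPKM, groups that did not overlap but did not pass the test (log2 fold change -0.11, adjusted p = 0.2418). URB1 was the third lowest member by level, at a mean of 4.54 FPKM, with a log2 fold change of -0.056 (adjusted p = 0.7271). RRP1 had the highest fitted value of all 55 members, at a log2 fold change of 0.089, and its libraries overlapped: 13.8, 14.6 and 12.7 FPKM against 14.2, 12.0 and 12.7 FPKM (adjusted p = 0.5297). The remaining 4 members of this group were NOC2L, NOC3L, URB2 and RRP1B.

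**Figure D2:**
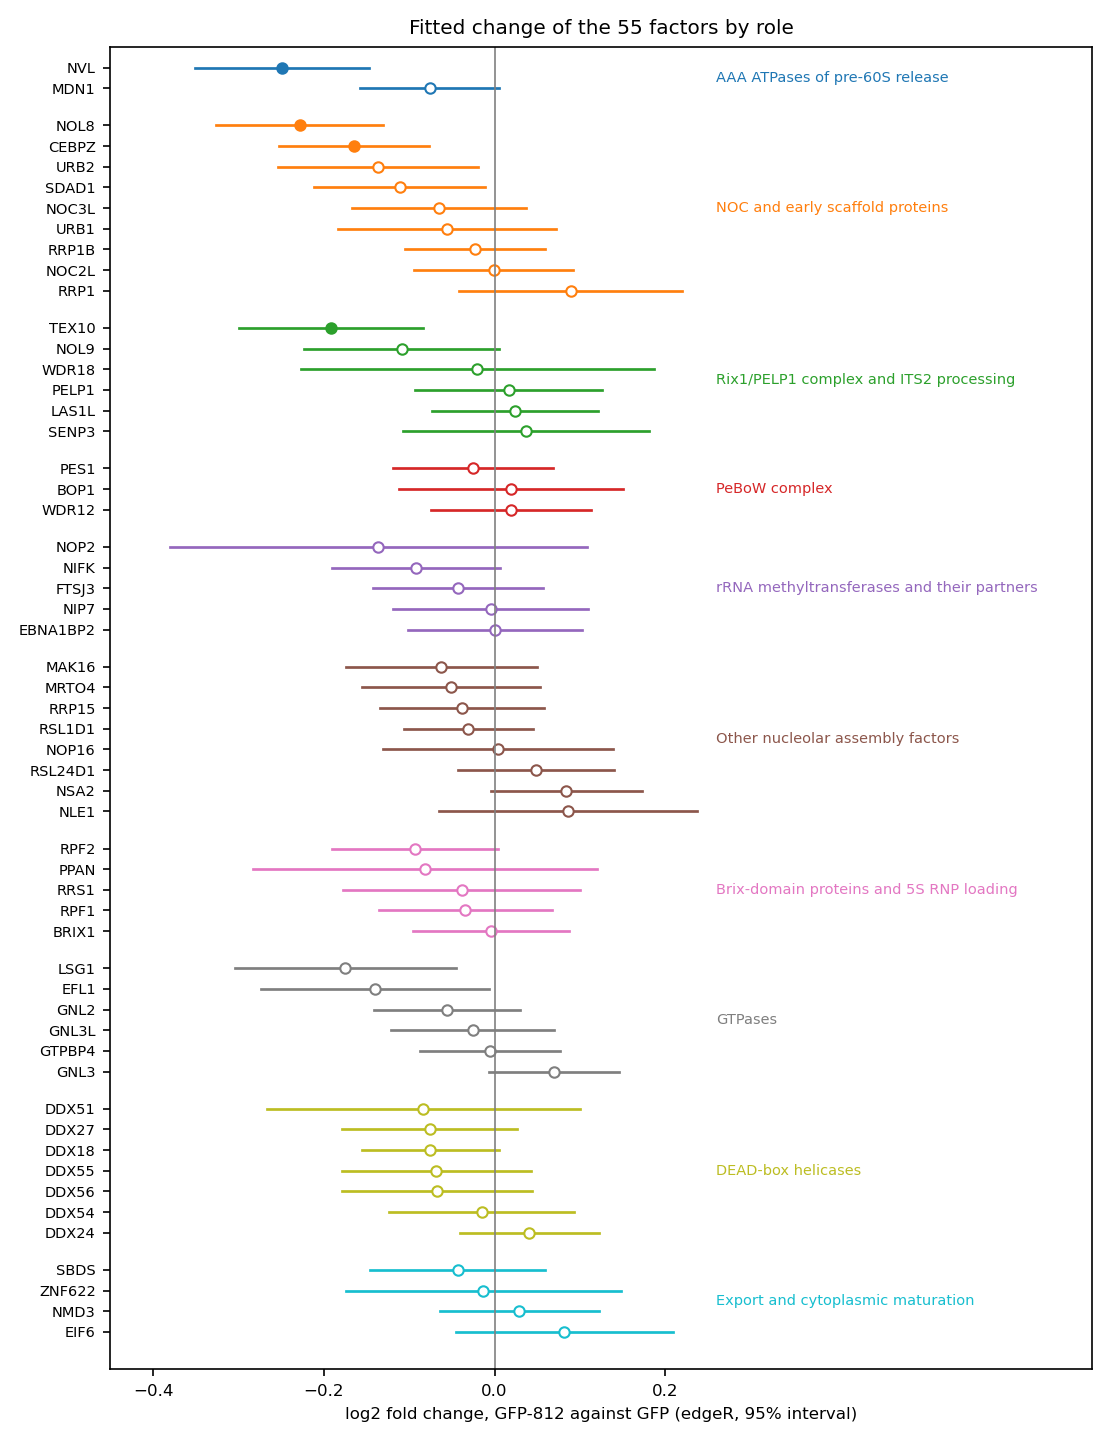
Fitted log2 fold change of GFP-812 against GFP for each of the 55 factors, in blocks by role, with 95% intervals, and filled points for the 4 factors past an adjusted p of 0.05. NVL, NOL8 with CEBPZ, and TEX10 stand lowest in their blocks, at -0.25 to -0.16, and 40 of the 55 points lie below 0.

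Of 6 members of the Rix1/PELP1 complex and of ITS2 processing, the removal of the spacer between the 5.8S and 28S sequences, 1 fell and 5 did not pass, with 3 fitted values on each side of 0. TEX10 (ENSG00000136891, chromosome 9, 100302077 to 100352942, minus strand) was at 12.6, 12.0 and 12.0 FPKM against 14.6, 14.8 and 12.8 FPKM. GFP library 3 lay just above the highest GFP-812 library, and the other GFP libraries stood well apart from it. TEX10 fell by 12.4% (log2 fold change -0.19, SE 0.0538, adjusted p = 0.02861), and its call was lost without GFP-812 library 2 (0.1983), GFP-812 library 3 (0.1553), GFP library 1 (0.2179) or GFP library 2 (0.1329), and in DESeq2 (0.05597). NOL9, the polynucleotide kinase of the ITS2 step, was at 9.18, 8.83 and 8.96 FPKM against 9.82, 9.43 and 10.1 FPKM. These values did not overlap, and the test did not pass (log2 fold change -0.11, adjusted p = 0.337). The partners of TEX10 in the complex, PELP1, WDR18, SENP3 and the nuclease LAS1L, had fitted values between -0.020 and 0.037.

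None of the other 38 members passed the test in either direction. Of the 6 GTPases, 5 had fitted values below 0. LSG1, which frees the export adaptor NMD3 in the cytoplasm, was at 9.48, 8.90 and 9.09 FPKM against 10.2, 10.5 and 10.6 FPKM. Its groups were well apart, and it was the nearest of the members to the threshold outside it (log2 fold change -0.17, 95% interval -0.30 to -0.045, adjusted p = 0.1255). EFL1, which works with SBDS to release EIF6, was at 7.66, 6.32 and 7.03 FPKM against 7.96, 7.59 and 7.77 FPKM, with overlap at GFP-812 library 1 (log2 fold change -0.14, adjusted p = 0.2774). GNL3, or nucleostemin, was the most abundant member. At 153.8, 147.5 and 147.9 FPKM against 148.1, 138.0 and 145.6 FPKM, its groups overlapped (log2 fold change 0.070, adjusted p = 0.3647).

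Among the 7 DEAD-box helicases, which unwind RNA, 6 fitted values lay below 0 and the median was -0.068, with log2 fold changes of -0.075 for DDX18 (adjusted p = 0.3496) and -0.076 for DDX27 (0.482). DDX18 was at 36.7, 36.0 and 37.5 FPKM against 40.6, 38.9 and 37.6 FPKM, without overlap by the margin of GFP library 3 alone. DDX51, the second lowest member by level, was at 4.36, 3.73 and 4.05 FPKM against 3.92, 5.18 and 3.87 FPKM, and its high value came from GFP library 2 (adjusted p = 0.7103).

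The 5 Brix-domain and 5S loading proteins all had fitted values below 0, from -0.094 to -0.0037. RPF2, which with RRS1 brings the 5S particle to the subunit, was at -0.094 (adjusted p = 0.3334) and PPAN at -0.081 (0.7512). Of the 5 rRNA methyltransferases and their partners, 4 lay below 0. NIFK, a partner of the proliferation protein Ki-67, was at -0.092 (adjusted p = 0.3535). The methyltransferase NOP2 was the lowest member by level, at 2.66, 2.68 and 2.31 FPKM against 3.21, 2.86 and 2.39 FPKM, and had the widest interval, -0.38 to 0.11 (adjusted p = 0.6291). Of its exonic bases 54.4% lie in another gene's exons, as do 59.8% of those of PPAN and 58.7% of those of NSA2, so that these 3 levels depend on how shared reads were counted.

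The PeBoW complex, PES1, BOP1 and WDR12, which is needed for the large-subunit RNAs to mature, had every 95% interval inside -0.12 to 0.15 on the log2 scale. PES1 was at a log2 fold change of -0.025 (adjusted p = 0.8501) and WDR12 at 0.019 (0.8934). Other nucleolar assembly factors were split, 4 below and 4 above 0. NSA2 was at 38.3, 39.1 and 36.5 FPKM against 37.2, 34.7 and 36.3 FPKM (log2 fold change 0.084, adjusted p = 0.3401), NLE1, a substrate of MDN1, was at a log2 fold change of 0.086 (0.6216), and RSL1D1, the second most abundant member, at -0.031 (0.7476). MRTO4, which holds the place of the stalk protein P0, was without overlap between groups that lay close together, at 34.5, 32.2 and 33.7 FPKM against 35.2, 34.8 and 34.9 FPKM (log2 fold change -0.051, adjusted p = 0.6865). Of the 4 export and cytoplasmic factors 2 lay above and 2 below 0, among them EIF6, the factor that keeps the subunits apart, at 0.082 (adjusted p = 0.5623) and SBDS, mutated in Shwachman-Diamond syndrome, at -0.043 (0.7393).

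The 51 members that did not pass had log2 fold changes of -0.17 to 0.089. The depth bounds these values: members had 178 to 8436 counts per library, their standard errors were 0.0378 to 0.122 with a median of 0.0508, and 45 of the 55 had a 95% interval wholly inside ±0.25 on the log2 scale. A p that misses the threshold does not show that levels were equal. By level, the members ran from 2.69 FPKM for NOP2 to 146.8 FPKM for GNL3, with a median of 18.6 FPKM and 44 members at 10 FPKM or more. GNL3 stood apart at the top of this order, followed by RSL1D1 at 69.4 FPKM and CEBPZ at 52.4 FPKM. Neighbours further down can be closer than the spread of a group, such as DDX51 at 4.18 FPKM, with an SD of 0.742 FPKM in the GFP libraries (n = 3), and URB1 at 4.54 FPKM.

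Without regard to the threshold, 40 of 55 fitted log2 fold changes (72.7%) lay below 0, against 48.2% of all genes tested, and the median was -0.038 against 0.0069. This is a description of the list with no test. In 10 members all 3 GFP-812 values lay below all 3 GFP values: NVL, NOL8, CEBPZ, TEX10, LSG1, SDAD1, NOL9, DDX18, DDX27 and MRTO4. They are 18.2% of the members, against 12.1% of all genes tested. No member had all 3 above, against 7.93% of all genes.

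The libraries did not split by group on the list as a whole. As a deviation from each gene's own mean, the members' median was -0.0031, -0.019 and -0.040 on the log2 scale in GFP-812 libraries 1, 2 and 3, and 0.070, -0.013 and 0.0061 in GFP libraries 1, 2 and 3. GFP library 1 was the high library and held the highest value of 30 of the 55 members, while GFP library 2 lay among the GFP-812 libraries and held the lowest value of 14. Without GFP library 1 the median log2 fold change of the members was -0.015, without GFP-812 library 2 it was -0.024, and without GFP library 2 it was -0.058. What sets GFP library 1 apart was not tested. For the 4 lower members the order was different: their lowest GFP library was GFP library 3, and even that library lay above all 3 GFP-812 libraries.

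**Figure D3:**
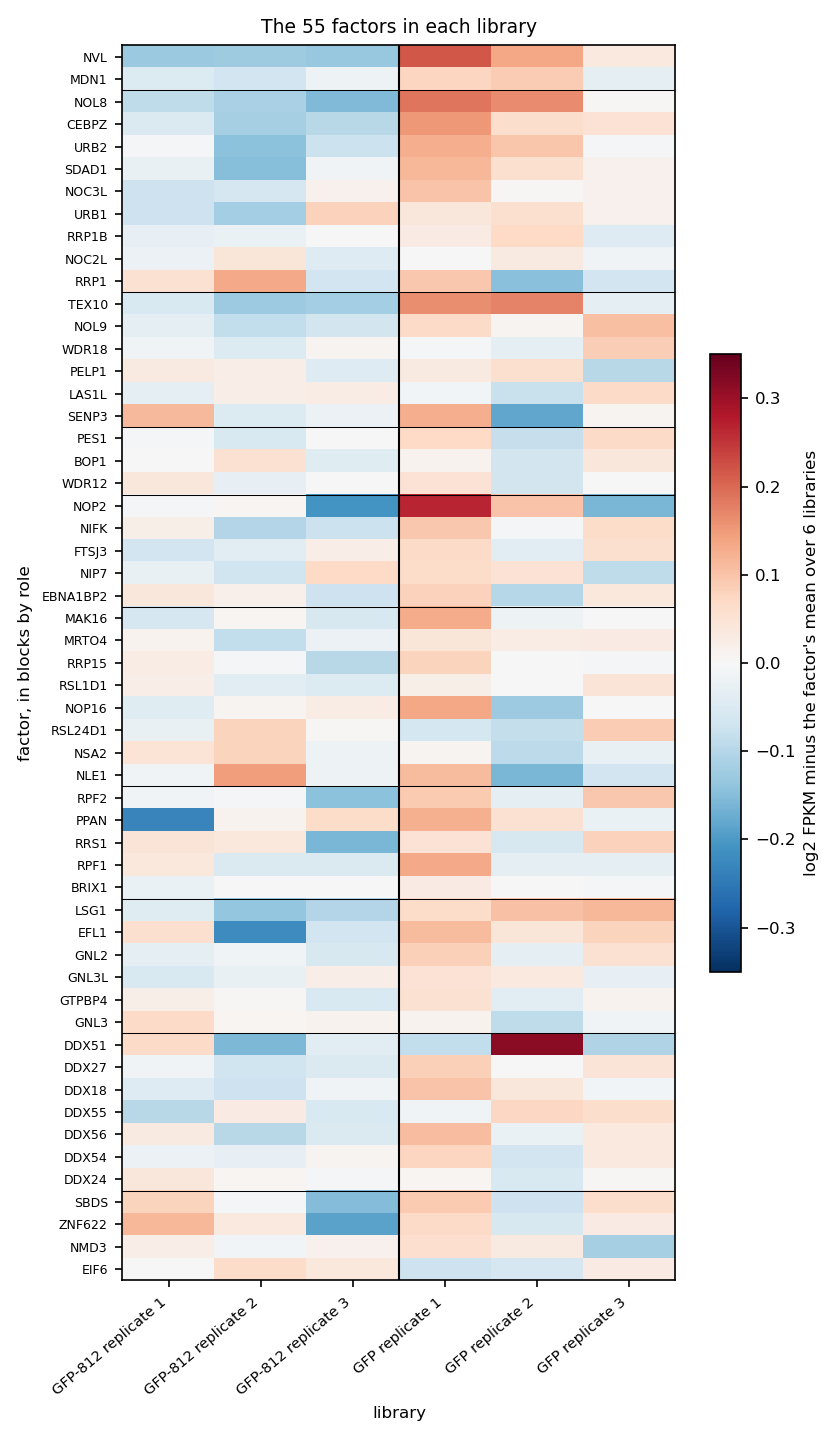
Log2 FPKM of each of the 55 factors in each library minus the factor's mean over 6 libraries, in blocks by role, from blue (lower) to red (higher). The column of GFP library 1 is mostly red, holding the highest value of 30 factors, while the NVL, NOL8, CEBPZ and TEX10 rows are blue in all 3 GFP-812 columns.

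**Figure D4:**
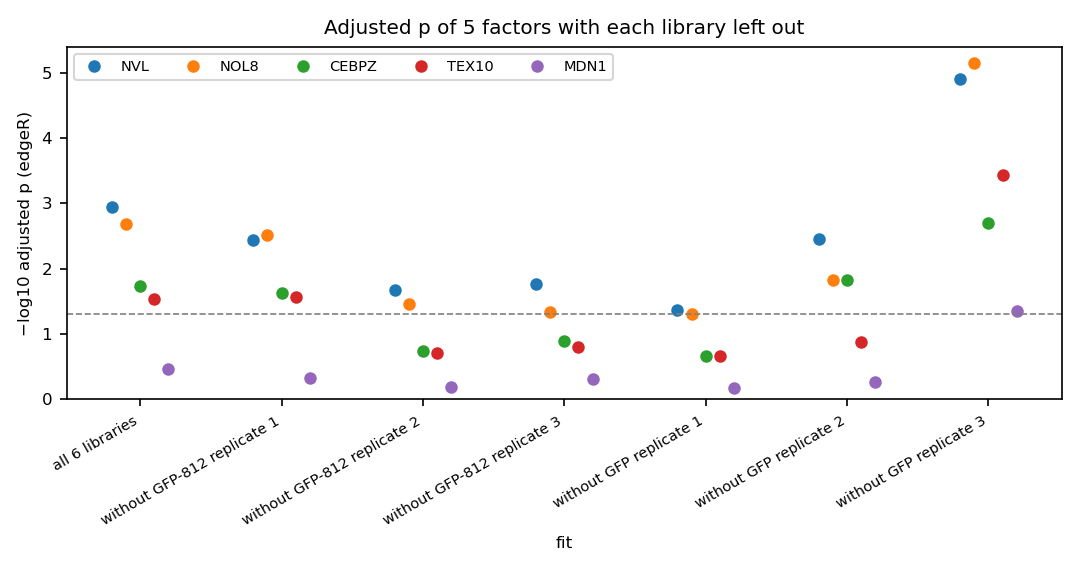
The adjusted p of NVL, NOL8, CEBPZ, TEX10 and MDN1, as its negative log10, with all 6 libraries and with each library left out, and the threshold of 0.05 as a dashed line. NVL and NOL8 stay above the line in each fit, at adjusted p of 0.04297 and 0.04915 without GFP library 1, and MDN1 crosses it only without GFP library 3.

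Of a further 37 genes of large-subunit assembly that are not members, 36 were tested, 1 was lower, 1 was higher and 34 did not pass. On this list 21 fitted values lay below 0 and 15 above, with a median of -0.028. Over all genes tested 2.67% were lower and 1.18% higher, 48.2% of fitted values lay below 0 and the median was 0.0069. A count of 1 in 36 is near these shares called, so it does not set the list apart. ZNF593 was listed at 0 in all 6 libraries. The lower gene was NSUN5, an rRNA methyltransferase, at 4.78, 4.84 and 5.01 FPKM against 6.30, 6.10 and 6.0 FPKM (log2 fold change -0.32, SE 0.0963, adjusted p = 0.04851). The higher gene was RPL11, a ribosomal protein of the 5S particle, at 335.7, 327.8 and 339.6 FPKM against 293.6, 275.7 and 327.4 FPKM (log2 fold change 0.17, SE 0.0399, adjusted p = 0.00437), with GFP library 3 near the GFP-812 libraries. RPL11 lost its call without GFP library 2 (adjusted p = 0.07485), and NSUN5 lost its call without each library other than GFP library 3 (0.0968 to 0.2023). Ribosomal protein genes have pseudogene copies that can share their reads, so the RPL11 value is uncertain. The number of lower genes on this list was 0 without GFP-812 libraries 1, 2 or 3 or GFP libraries 1 or 2, and 2 without GFP library 3, where 3 were higher.

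Annotation of the members was looked up in the columns of the deposited table. The nucleolus is named for 51 of the 55 members (92.7%, against 5.42% of genes tested) and not for RRP15, LSG1, EFL1 and CEBPZ. Because the members were chosen by what their products do, this share follows from the rule and is no result of these data. Over genes with under 4000, from 4000 to under 6000, and 6000 or more exonic bases, the members' median log2 fold change was -0.036, -0.034 and -0.038, while that of all genes tested was 0.037, 0.0005 and -0.015. Spearman's rho of log2 fold change and exonic size, given as a description across genes that share libraries, was -0.081 over the 55 members and -0.12 over all genes tested. A tested gene starts head to head within 1000 bases of 18 members, and of these neighbours 0 were lower and 1 was higher. The neighbours of the lower members, CENPP beside NOL8 and NDUFAF7 beside CEBPZ, did not pass, at log2 fold changes of -0.13 (adjusted p = 0.5378) and 0.026 (0.9213).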

How the data were processed

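Messenger RNA of 293T cells was sequenced in 3 GFP-812 and 3 GFP libraries, grouped by the sample titles. The build hg38 and the tools HTSeq 0.6.1, HISAT2 2.2.1, cutadapt 1.9.1 and FastQC 0.10.1 are named in the submitters' processing notes. The strand setting and annotation release of the counting are not given. The authors deposited raw counts per gene and library in 1 table of 61806 genes. Per the file headers the same table holds FPKM, which equal the deposited counts divided by exonic size and library total (100% of values within 0.0051). Reads shared by overlapping genes or copies can shift single values.

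The members and all gene lists were chosen with earlier results of these data known. Counts were tested with edgeR 4.0.16 in R 4.3.3 (filterByExpr, TMM, quasi-likelihood test, group as the single term) over 16834 genes, with 2-sided p-values, Benjamini-Hochberg adjustment over all of them and a threshold of 0.05. Standard errors come from the F statistic, and 95% intervals from the t distribution. The script was tested on simulated data, with recovery required only for changes larger than that of any member here. Alternatives were other scalings and filters, limma 3.58.1 on log2(FPKM + 1) or log2(FPKM + 0.1), limma-voom, DESeq2 1.42.0, the replicate number as a term, and each library left out.

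Named were the members past the threshold, the 2 with the smallest p in each role group, the 3 highest and 3 lowest by level, the largest fitted rise and fall, those without overlap between groups, and pathway genes past the threshold. Promoter windows are those of RefSeq, GRCh38.p14. No window was found for 8 members. Exon overlaps come from GENCODE 29. A further marker list is not reported here.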

Additional observations from a re-analysis of the deposited data

How the results depend on the processing

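The 4 lower members were the same genes with median-of-ratios scaling, library totals alone, no filter, a mean FPKM of at least 1 and limma-voom, and DESeq2 called 3 of them. The number of lower members was 2 to 5 when 1 library was left out and 0 with limma at either pseudocount, that of all lower genes 147 to 810 and 1 and 1, and that of all higher genes 62 to 507 and 3 and 3, with 119 in DESeq2. Library totals alone gave 575 lower and 161 higher genes against 449 and 198. On the further list of 37 genes, lower genes numbered 0 to 2 without 1 library, and 0 with no filter, both limma fits, limma-voom and DESeq2; higher genes numbered 0 to 3 without 1 library, 0 with both limma fits and DESeq2 and 3 with limma-voom. In a fit that leaves a group with 2 libraries fewer residual degrees of freedom remain, and the cause of lost calls was otherwise not tested. The median of the members stayed below 0 in each fit, from -0.058 to -0.015. Over the genes named, 429 of 473 alternative values kept their side of the threshold, 43 lost a call and 1 gained one. Only a gene called with all 6 libraries in edgeR can lose a call, and the 429 include values of uncalled genes that stayed uncalled. The 429 therefore do not measure how stable the calls were. Among the 429 are values of 4 named genes that were not called and changed sign. Same-numbered libraries of the 2 groups did not deviate together (correlations 0.0318, -0.010 and 0.0061), so the numbers are not taken to pair them; with the replicate number as a block, 4 members were lower, as were 511 of all genes, with 266 higher, the members' median was -0.037, and no member gained or lost a call.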

Other observations

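RSL1D1-DT and SBDSP1, named here after their values were seen, passed the test while the member each is tied to did not. RSL1D1-DT, a transcript that starts head to head with RSL1D1, was at 1.48, 1.35 and 1.44 FPKM in the GFP-812 libraries and at 0.44, 0.61 and 0.26 FPKM in the GFP libraries (log2 fold change 1.69, SE 0.507, edgeR adjusted p = 0.04451). It rests on 15, 15 and 18 counts against 5, 7 and 3, and its call was lost without each single library (adjusted p 0.07744 to 0.1864) and with no filter on low counts (0.08976). RSL1D1 itself, at 70.4, 67.5 and 67.0 FPKM against 70.3, 69.4 and 71.5 FPKM, did not pass (log2 fold change -0.031, adjusted p = 0.7476).

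SBDSP1, a pseudogene of SBDS that can share its reads, was at 20.9, 21.6 and 21.0 FPKM against 26.8, 26.1 and 23.6 FPKM (log2 fold change -0.26, SE 0.0673, adjusted p = 0.01647). SBDS was at 50.7, 47.8 and 43.3 FPKM against 51.2, 45.7 and 50.2 FPKM, with overlap between the groups, and the difference between the pair was not tested. The call of SBDSP1 was lost in limma on log2(FPKM + 1) (0.2119), without GFP-812 libraries 1 (0.05059), 2 (0.07787) or 3 (0.09907) and without GFP libraries 1 (0.1621) or 2 (0.06306). Within the introns and exons of 4 members, GNL3, PPAN, DDX55 and URB1, lie 8 snoRNA genes, whose small RNAs guide modification of ribosomal RNA. In these poly(A) libraries they had 0 to 32 counts per library, too few to compare.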
